A study of Mus musculus with 6 samples.

Results

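Ptprc, Cd44, Malt1, Tjp1 and Vegfa are the 5 transcripts examined here, out of 38293 genes in the count tables. They were taken from the literature as transcripts whose splicing, stability or translation has been tied to the RNA binding protein hnRNP L, mostly in human cell lines. They also own 141 of the 355320 exon bins in the second kind of table, an exon bin being a stretch of exon whose boundaries are set by the annotated transcripts. RNA was sequenced from sorted Lin-cKit+ cells, a progenitor fraction, of the fetal liver (FL) of C57BL/6 embryos at E14.5. Libraries came from 3 wt embryos and 3 hnRNP L deficient embryos (VavCre+ hnRNP L fl/fl), 1 embryo per library. In the latter the Vav promoter drives Cre in hematopoietic cells, so that recombination of the floxed hnRNP L alleles is directed to blood cells. How complete it was in the sorted cells was not tested here. The labels call the first group wt without naming alleles, and their tissue entry reads whole embryo where the source name reads fetal liver. Exon bins were analysed in 3 wt libraries and in replicates 2 and 3 of the deficient group, and the bins of its replicate 1 are not analysed here. Deficient replicates 2 and 3, the only deficient libraries with analysed bins, share the first part of their embryo numbers, as do wt replicate 1 and deficient replicate 1, and the labels do not say whether this marks a litter. Every p-value rests on these few embryos, and the count models also share information on spread across genes or bins.

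The protein hnRNP L binds CA repeats and CA-rich stretches of RNA. Bound inside or next to an exon it can block or favour the use of that exon, and bound to the 3′ part of an mRNA it can alter stability and translation. In T cells the best known case is Ptprc, which encodes the phosphatase CD45 and whose variable exons 4, 5 and 6 are skipped when hnRNP L and its relative hnRNP LL act on them. The other members cover an adhesion receptor (Cd44), a scaffold of tight junctions (Tjp1), a secreted angiogenic factor (Vegfa) and a protease and scaffold of NF-kB signalling (Malt1).

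Gene counts per library ran from 55952160 to 76157226 reads. Hnrnpl, the targeted gene, stood at 552, 531 and 528 CPM (read counts scaled to library size with TMM factors) in wt and at 242, 288 and 270 CPM in deficient cells, which do not overlap. The log2 fold change was -1.01 ± 0.088 (SE, n = 3 and 3, edgeR adjusted p = 0.0072), and transcripts of the gene were still counted in every deficient library. One library stood apart before any comparison. In wt replicate 2 the summed level of 7 granulocyte and monocyte markers was 7900 CPM against 584 and 1480 CPM in the other wt libraries and 242 to 778 CPM in the deficient ones, and its reads lay closer to the 3′ ends of transcripts. Over 5591 well covered genes the bins nearest the 3′ end (1 bin in 3) held a median of 51.9% of a gene's bin reads in wt replicate 2 and 45.7% to 46.3% in the other 4 libraries with bins. Markers of the sorted progenitors were present throughout, with Kit between 325 and 656 CPM. Their summed level was 1080 to 1480 CPM in wt and 865 to 983 CPM in deficient libraries, and 3 of the 5 (Kit, Cd34 and Runx1) fell. The 7 hepatocyte markers summed to 110 to 234 CPM in wt and 24.5 to 73.5 CPM in deficient libraries, and 1 of them (Ttr, transthyretin) fell. Summed macrophage, lymphoid, endothelial and mesenchymal markers were also lower in all 3 deficient libraries, at 1.63 to 3.52 against 6.01 to 14.6 CPM, 0.0932 to 0.536 against 1.1 to 7.54 CPM, 12.2 to 14.6 against 25.8 to 55.8 CPM and 7.16 to 8.77 against 10.4 to 18.8 CPM, with 2 of 6, 2 of 3, 2 of 7 and 1 of 4 tested markers falling and 1 mesenchymal gene (Col1a2) rising. The lymphoid gene Dntt and the macrophage gene Cd163 had no read in any library. Erythroid, megakaryocyte and mast cell sums overlapped between the groups.

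At gene level 2 of the 5 members fell, Ptprc and Malt1, and none rose at an adjusted p under 0.05. Of all 14396 genes tested, 9.85% fell and 9.32% rose at that limit (19.2% in either direction), so 2 of 5 is a count too small to be read against the background. The calls rest on 3 embryos a group. When wt replicate 3 or any 1 of the 3 deficient libraries was left out, neither gene passed (adjusted p of 0.055 to 0.14, edgeR), although both stayed lower in the deficient group, and 5 to 17 genes of the whole table were called. When wt replicate 1 or 2 was left out both passed. Per kilobase of placed exon (RPKM, the CPM divided by that length), the mean level in wt cells was highest for Cd44 (27.2 ± 3.69, SD, n = 3), followed by Ptprc (12.9 ± 8.29), Vegfa (7.61 ± 2.12), Malt1 (6.45 ± 1.11) and Tjp1 (2.20 ± 0.816). Cd44 lay above the rest and Tjp1 below the rest in every wt library, whereas the ranges of Ptprc, Vegfa and Malt1 overlapped. In deficient cells Cd44 was again first (25.4 ± 1.53 RPKM) and Vegfa second (7.35 ± 0.985), and Ptprc, at 3.01 ± 0.72 RPKM, came last with a range that overlapped that of Tjp1 (3.44 ± 0.302).

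**Figure D1:**
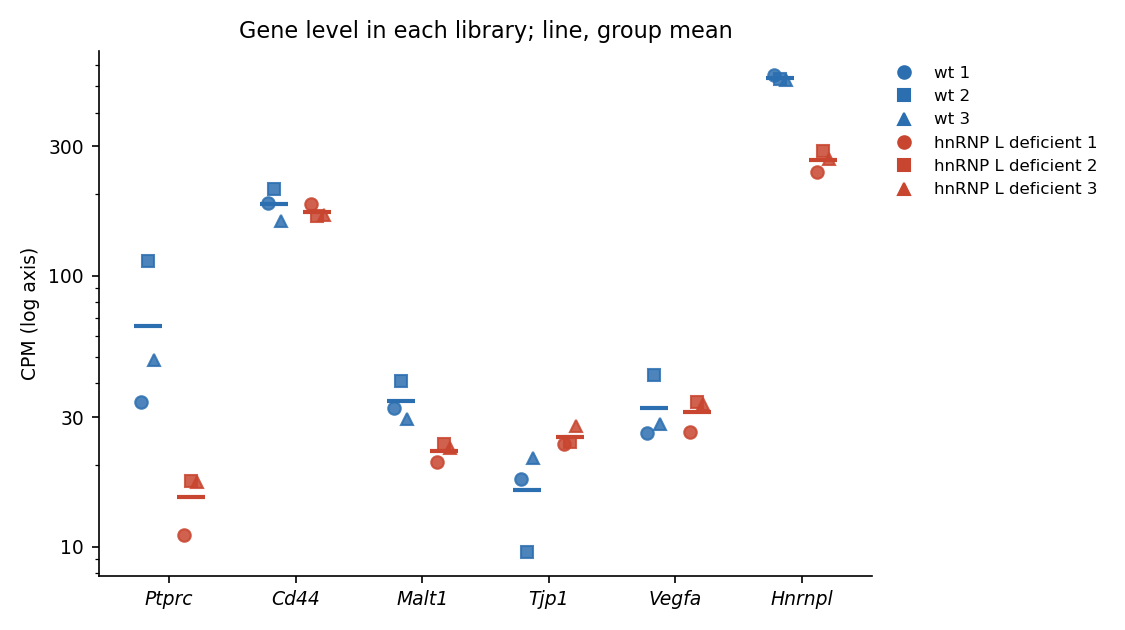
Gene level in CPM (log axis) of the 5 members and of Hnrnpl in the 3 wt (blue) and 3 hnRNP L deficient (red) libraries; each symbol is a library and each line a group mean. Ptprc runs from 34.2 to 113 CPM in wt and from 11 to 17.5 CPM in deficient cells, whereas the libraries of Cd44 and Vegfa overlap.

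At exon level no tested bin of the members passed the test. Of the 141 bins, 128 averaged 10 or more reads per library and were tested, and the smallest unadjusted p among them was 0.177. None of the 128 passed an unadjusted p of 0.05 in edgeR's diffSpliceDGE, a limit passed by 1.03% of the 176996 bins tested, and none passed an adjusted p of 0.05, which 0.0288% (51 bins) passed. A share of 1.03% is well under what a limit of 0.05 lets through when nothing changes. The test was therefore conservative with these libraries, and the lack of a pass does not show that usage was unchanged. The DEXSeq model fitted in DESeq2 put 4 member bins under an unadjusted 0.05 (Ptprc bins 15, 28 and 33 and Tjp1 bin 10), limma's diffSplice put 1 there (Cd44 bin 1), and the smallest adjusted p over these was 0.66. A usage change above 2-fold was seen in 3 of the 128 bins (2.24% of all bins). In 16 of the 128 the shares of gene reads did not overlap between the 3 wt and 2 deficient libraries, against 20.3% of all bins tested. These member counts were close to or below the shares among bins in general.

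**Figure D2:**
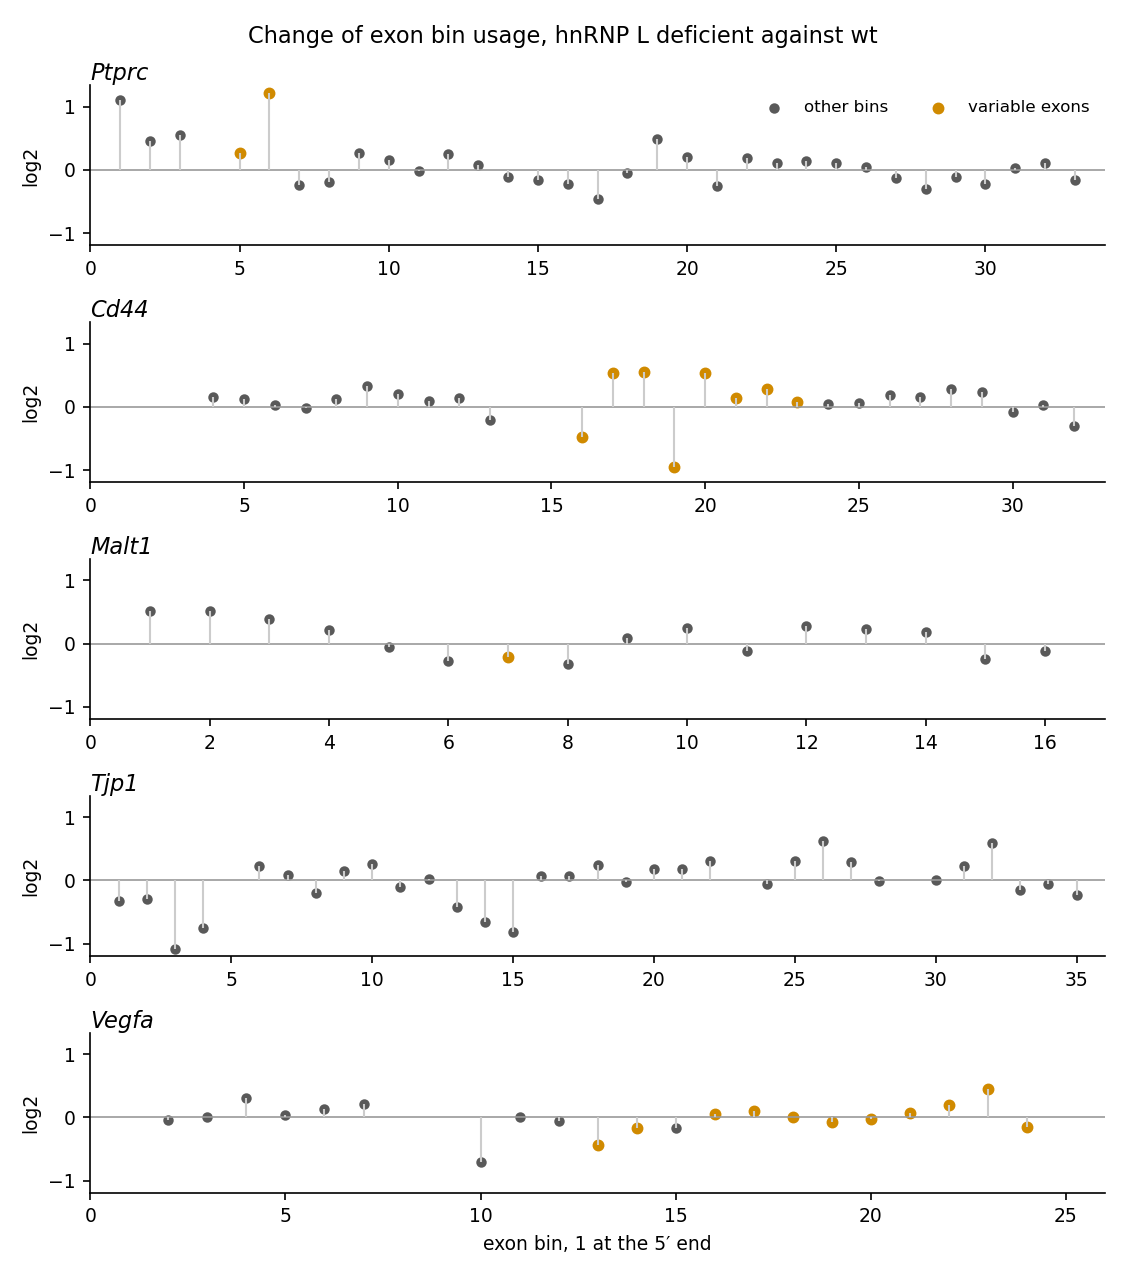
Log2 change of exon bin usage (hnRNP L deficient against wt, relative to the other bins of the gene) for the 128 tested bins of the 5 members, ordered from the 5′ end; variable exons and the last exon of Vegfa are in orange. All changes lie between -1.08 (Tjp1) and 1.22 (Ptprc), and no bin has an unadjusted p under 0.05.

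Ptprc lies at chr1:138062861-138175708 (GRCm38, minus strand), and its 33 deposited bins were placed on the 33 exons of the annotated transcript ENSMUST00000183301. Exons 4, 5 and 6 encode the parts of the extracellular domain that tell the RA, RB and RC forms of CD45 apart, and their joint absence gives the RO form. The exons are printed from the GENCODE M21 transcript, 5′ to 3′, because they are the classic hnRNP L regulated exons. Capitals mark the letters ACACA, the shortest run searched as a piece of a CA repeat, on the transcript strand only and with overlapping matches counted separately.
Ptprc exon 4 (chr1:138122456-138122584): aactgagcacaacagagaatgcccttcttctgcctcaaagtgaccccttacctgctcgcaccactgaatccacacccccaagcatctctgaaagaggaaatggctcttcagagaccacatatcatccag
Ptprc exon 5 (chr1:138120020-138120166): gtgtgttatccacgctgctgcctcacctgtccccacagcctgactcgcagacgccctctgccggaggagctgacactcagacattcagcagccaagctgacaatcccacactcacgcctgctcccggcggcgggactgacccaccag
Ptprc exon 6 (chr1:138117754-138117894): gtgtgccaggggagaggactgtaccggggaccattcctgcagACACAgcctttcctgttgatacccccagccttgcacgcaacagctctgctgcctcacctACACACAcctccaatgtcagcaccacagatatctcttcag
Exon 6 holds 3 matches and exons 4 and 5 hold none. Among internal exons of annotated coding transcripts within 10% of the same length, the share with at least 1 match is 13.4%, 15.4% and 14.6% for the lengths of exons 4, 5 and 6. The dinucleotide CA occurs 11.6 times per 100 bases in exons 4 and 5 and 13.5 times in exon 6.

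The level of Ptprc was 34.2, 113 and 48.8 CPM in wt and 11, 17.5 and 17.3 CPM in deficient cells. All 3 deficient embryos lay below all 3 wt embryos, and the wt libraries differed 3.31-fold among themselves. The mean was 4.28-fold lower in deficient cells, with a log2 fold change of -2.10 ± 0.49 (SE, edgeR adjusted p = 0.038). Without wt replicate 2 it was -1.44 (adjusted p = 0.0086), and with no filter on low counts the adjusted p was 0.085. In the wt libraries the order of Ptprc was also the order of the granulocyte and monocyte markers. Examples are Mpo (myeloperoxidase) at 471, 5610 and 1170 CPM, and the M-CSF receptor gene Csf1r at 11.3, 69.3 and 27.6 CPM. The order was not particular to them. Summed progenitor, macrophage, lymphoid, megakaryocyte, mast cell, endothelial and mesenchymal markers had it too, and only erythroid and hepatocyte sums did not. In the deficient libraries Mpo was at 191, 568 and 537 CPM, within or below the wt range, and Csf1r at 2.08, 4.61 and 4.80 CPM, below it. The part of any of these cell types in the level of Ptprc was not tested. The lineage cocktail of the sort held Gr1 but no CD11b antibody for FL cells, and in these bulk libraries fewer cells of a type and less RNA per cell cannot be told apart. The genes whose log2 CPM followed Ptprc most closely over the 6 libraries, among 8650 genes with at least 10 CPM, were Ccnd1 (cyclin D1, r = 0.9990), Arhgap15 (a Rac regulator, r = 0.9989) and Rassf5 (a Rap1 effector, r = 0.9986), given as a description without a p.

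The 5′ part of Ptprc was thinly covered. Exon 4 had 4, 12 and 8 reads in the wt and 5 and 6 reads in the deficient libraries, out of 3399, 12105, 6648, 2131 and 2389 reads on all bins of the gene, too few for the bin test, which covered the other 32 exons. As a share of these reads exon 4 stood at 0.118%, 0.0991% and 0.120% in wt and at 0.235% and 0.251% in deficient replicates 2 and 3. Both deficient libraries lay above the wt range, at 0.243% ± 0.0117 (SD, n = 2) against 0.112% ± 0.0116 (n = 3), a log2 difference of 1.14. The exact 95% binomial interval of a single library spans a wide range at these depths, for instance 0.0321% to 0.301% in wt replicate 1 and 0.0922% to 0.546% in deficient replicate 3, and covers counting error only. With 3 against 2 libraries the exact permutation test cannot go below 0.2, which it reached (two-sided, adjusted p of 1 over the 18 variable exons tested). Exon 6 showed the same order. It had 5, 33 and 36 reads in wt and 19 and 14 in deficient libraries, or 0.147%, 0.273% and 0.542% against 0.892% and 0.586%. Its log2 usage change of 1.22 was the highest of any tested member bin (unadjusted p of 0.370 in edgeR and 0.0428 in the DEXSeq model, adjusted p of 1 in both). Exon 5, with 16, 60 and 69 against 14 and 20 reads, overlapped between the groups at 0.471% to 1.04% and 0.657% to 0.837%.

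Shares of the whole gene also move with the coverage of the 5′ end, where exon 1 had 7, 57 and 50 reads in wt and 24 and 24 in deficient libraries and a usage change of 1.11 (edgeR unadjusted p = 0.351, the smallest in the gene). The variable exons were therefore also set against their constant neighbours, exons 3 and 7, a measure chosen after the data were seen. It is not scaled for the lengths of the exons, here or for the other members, so it is not an inclusion rate. Exon 4 had 6.56, 5.88 and 3.65 reads per 100 neighbour reads in wt and 15.6 and 9.38 in deficient libraries. Exon 6 had 8.20, 16.2 and 16.4 in wt and 59.4 and 21.9 in deficient libraries. The neighbours themselves were thinly covered, with 61, 204 and 219 reads in wt and 32 and 64 in deficient replicates 2 and 3. Both deficient libraries again lay above wt for these 2 exons, by log2 differences of 1.24 and 1.46 (exact permutation p of 0.2 for each, the smallest possible). Exon 5 overlapped with 26.2 to 31.5 against 31.2 and 43.8. Its permutation p was 0.2 as well, but only because the 0.5 reads added before the log2 separate the groups. On its share of the gene the same test gave 0.6. All 3 exons carried fewer reads than the mean of their neighbours in the wt libraries, and exon 4 the fewest. Elsewhere in the gene the usage changes of the 27 exons from 7 onwards lay between -0.47 (exon 17) and 0.49 (exon 19) on the log2 scale, none past the test.

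**Figure D3:**
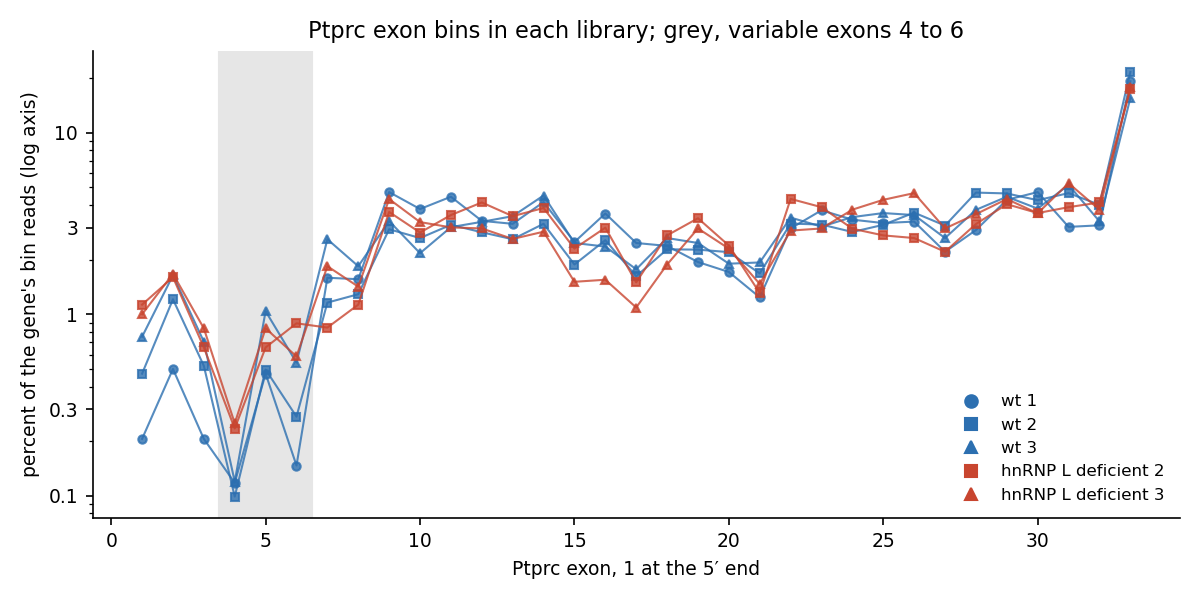
Reads on each of the 33 Ptprc exons as a percent of the gene's bin reads (log axis), from the 5′ end, in 3 wt (blue) and 2 hnRNP L deficient (red) libraries. Exon 4, the first of the shaded variable exons, is the lowest exon in every library, and there both deficient libraries (0.235% and 0.251%) lie above the wt libraries (0.0991% to 0.120%).

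Cd44 lies at chr2:102811141-102901665 (GRCm38, minus strand) and encodes the main receptor for hyaluronan. Its variable exons v1 to v10 sit between its constant 5′ and 3′ exons and lengthen the stem of the protein when included. Exon v10 is printed because it is the variable exon named with hnRNP L in the literature, with ACACA in capitals as before.
Cd44 v10 (chr2:102831330-102831536): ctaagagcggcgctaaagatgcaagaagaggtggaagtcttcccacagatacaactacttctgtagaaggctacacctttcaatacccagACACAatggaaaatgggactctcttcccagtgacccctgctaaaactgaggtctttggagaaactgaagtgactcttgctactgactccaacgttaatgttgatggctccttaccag
It holds 1 match (20.6% of internal exons of like length hold at least 1) and 5.8 CA dinucleotides per 100 bases.

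The level of Cd44 was 185, 209 and 159 CPM in wt and 184, 166 and 167 CPM in deficient libraries, which overlap. The log2 fold change was -0.10 ± 0.11 (SE, edgeR adjusted p = 0.56), with a 95% interval of -0.36 to 0.17. Without wt replicate 2 it was 0.0054. The genes of most similar pattern were Sik1 (r = 0.9911), Fkbp5 (r = 0.9859) and Gna13 (r = 0.9782), which encode a kinase, a co-chaperone of steroid receptors and a G protein subunit.

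The variable exons of Cd44 were close to silent in both genotypes. Together v1 to v10 held 152, 112 and 175 reads in wt and 166 and 176 reads in deficient libraries, or 0.623% to 0.996% and 0.883% to 0.995% of the gene's bin reads. Bin 25 alone, a constant stretch of 79 bases within the first exon, had 533 to 746 reads. Exon v10 was the most used, with 40, 47 and 53 reads in wt and 49 and 56 in deficient libraries. Per 100 reads on the constant exons on either side that was 2.85 ± 0.225 (SD, n = 3) and 2.79 ± 0.129 (n = 2), and as a share of the gene 0.260% to 0.302% in wt enclosed 0.294% and 0.281% in deficient cells (log2 difference 0.07, exact permutation p = 0.6). The other 9 variable exons had between 0 and 24 reads per library, and none separated the groups. Exons v1 and v2 fell under the read minimum of the bin test. Of the 27 tested bins, v6 (bin 14) had the lowest usage change at -0.95 and v5 (bin 15) the highest at 0.55. The smallest unadjusted p values, 0.177 and 0.213, belonged to bin 24, a constant exon with a change of 0.33, and to bin 1 at the 3′ end with -0.30. In v6 the 3 wt libraries alone had 20, 15 and 1 reads, so the spread within wt exceeded the difference between the groups.

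**Figure D4:**
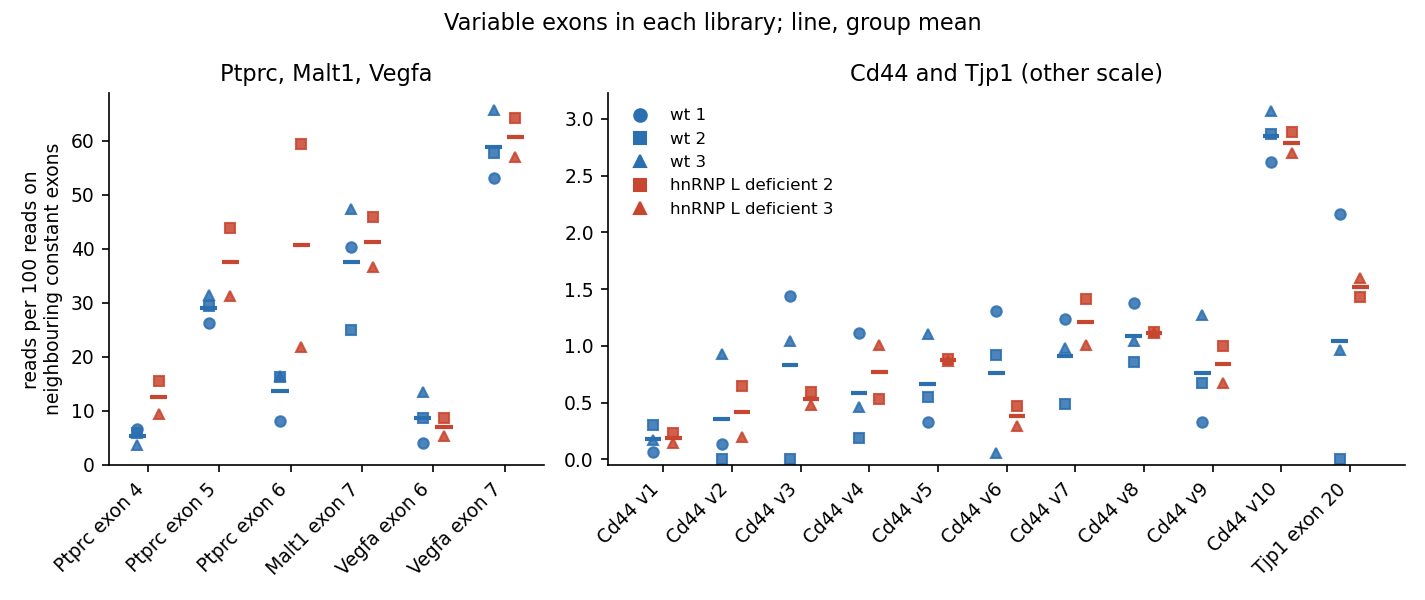
Reads on variable exons per 100 reads on neighbouring constant exons in 3 wt (blue) and 2 hnRNP L deficient (red) libraries, with group means as lines; the left panel holds Ptprc, Malt1 and Vegfa and the right panel, on its own scale, Cd44 and Tjp1. Values are not scaled for length and are not inclusion rates, so heights of different exons are not comparable. At Ptprc exons 4 and 6 both deficient libraries lie above wt, and at the other 15 exons the groups overlap. Malt1 exon 7 is drawn with them, although the annotation used does not mark it as variable.

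Tjp1 lies at chr7:65296165-65527781 (GRCm38, minus strand) and encodes ZO-1, a scaffold that ties tight junction proteins to actin. Its exon 20, of 240 bases, encodes the alpha domain and separates the ZO-1α+ from the ZO-1α- form.
Tjp1 exon 20 (chr7:65314093-65314332): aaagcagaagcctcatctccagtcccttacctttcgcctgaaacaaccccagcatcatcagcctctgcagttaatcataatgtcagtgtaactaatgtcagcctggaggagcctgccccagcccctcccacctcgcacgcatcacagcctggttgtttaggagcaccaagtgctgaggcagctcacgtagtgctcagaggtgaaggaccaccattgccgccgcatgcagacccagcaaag
The exon holds no ACACA (22.6% of internal exons of like length hold it) but 29 CA dinucleotides, or 12.1 per 100 bases.

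Tjp1 was at 17.7, 9.57 and 21.3 CPM in wt and at 23.9, 24.3 and 27.9 CPM in deficient libraries. All deficient libraries lay above all wt libraries, yet the log2 fold change of 0.65 ± 0.27 (SE) did not pass (edgeR adjusted p = 0.13, DESeq2 adjusted p = 0.054). Most of the wt spread came from wt replicate 2, the lowest library, and without it the change was 0.38 (adjusted p = 0.059). In that library the bins nearest the 5′ end (1 bin in 3) held 8.71% of Tjp1 bin reads, against 14.6% to 20.4% in the other libraries. Fance, a Fanconi anemia gene (r = 0.9967), Zfp239 (r = 0.9881) and Pklr, pyruvate kinase of the erythroid and liver type (r = 0.9881), had the most similar patterns, and Tjp1 itself ran against Malt1 (r = -0.907) over the 6 libraries.

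The alpha exon was almost absent from Tjp1 mRNA in these cells. It had 4, 0 and 4 reads in wt and 6 and 8 reads in deficient libraries, when exon 21 next to it had 102 to 332 reads, and it fell under the read minimum of the bin test. As a share of the gene this was 0.243%, 0% and 0.161% against 0.236% and 0.229%, where the 0 of 884 reads in wt replicate 2 allows a share of up to 0.339% (3 reads), or 0.416% as the upper bound of the exact 95% interval. Per 100 reads on exons 19 and 21 it was 2.16, 0 and 0.962 in wt and 1.43 and 1.60 in deficient cells, so the wt range enclosed both deficient libraries. The highest usage change in the gene was that of exon 23 (bin 10) at 0.63, with 52, 23 and 84 against 119 and 176 reads (edgeR unadjusted p = 0.267, and 0.0107, adjusted 0.66, in the DEXSeq model), and its shares were higher in both deficient libraries. The lowest was that of exon 2 (bin 33) at -1.08 (edgeR unadjusted p = 0.251), with 29, 2 and 27 against 8 and 26 reads. Exon 12 (bin 21) had a change of -0.82 (edgeR unadjusted p = 0.256). Without wt replicate 2 these last 2 bins had unadjusted p values of 0.0396 and 0.0246, and adjusted p values of 1.

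Vegfa lies at chr17:46016993-46032369 (GRCm38, minus strand) and encodes vascular endothelial growth factor A. Exons 6 and 7 encode heparin binding stretches, so that the shortest form, which lacks both, diffuses and the longest, which has both, stays at the cell surface and matrix. Of its 25 bins, 24 were placed and bin 1, with no reads, was not.
Vegfa exon 6 (chr17:46022277-46022348): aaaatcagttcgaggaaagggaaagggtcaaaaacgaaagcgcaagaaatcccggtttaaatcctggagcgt
Vegfa exon 7 (chr17:46020991-46021122): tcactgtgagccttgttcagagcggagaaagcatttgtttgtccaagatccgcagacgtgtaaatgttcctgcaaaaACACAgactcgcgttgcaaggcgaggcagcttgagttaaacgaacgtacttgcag
Exon 7 holds 1 ACACA (13.8% of internal exons of like length) and exon 6 none (8.16%), with 8.3 and 4.2 CA dinucleotides per 100 bases.

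Vegfa was at 26.3, 43.0 and 28.4 CPM in wt and at 26.6, 34.2 and 33.7 CPM in deficient libraries, which overlap. The log2 fold change was -0.05 ± 0.20 (SE, edgeR adjusted p = 0.88, 95% interval -0.53 to 0.42), and it turned to 0.20 without wt replicate 2 and to 0.06 without deficient replicate 1. Sept1, a septin (r = 0.9876), Trappc1, of a vesicle tethering complex (r = 0.9852), and Stfa1, a cysteine protease inhibitor with near-identical copies that can share reads (r = 0.9844), had the most similar patterns.

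In both genotypes exon 7 was used far more than exon 6. Exon 7 had 119, 258 and 214 reads in wt and 239 and 252 in deficient libraries, or 58.8 ± 6.33 (SD, n = 3) and 60.6 ± 5.12 (n = 2) per 100 reads on exon 5 and the first part of exon 8. For exon 6 the values, summed over its bins, were 9, 39 and 44 reads in wt and 32 and 24 in deficient libraries, or 8.75 ± 4.74 and 7.02 ± 2.24 per 100 neighbour reads. Exon 7 has 132 bases and exon 6 has 72, and these values are not scaled for length. As shares of the gene, exon 7 stood at 5.24% ± 0.581 against 5.50% ± 0.387 and exon 6 at 0.780% ± 0.413 against 0.635% ± 0.195, and both overlapped (exact permutation p of 0.8 for each). The last exon, summed over its bins, held 58.1% ± 3.25 of the gene's bin reads in wt and 58.3% ± 0.952 in deficient cells. A read counts on every bin it overlaps and this exon is cut into many bins, so this is not its share of single reads. The smallest unadjusted p-values in edgeR were 0.304 for bin 16, a stretch just 5′ of exon 4 that belongs to 3 of the transcripts, and 0.352 for bin 3 in the last exon. Their usage changes of -0.71 and 0.44 were also the lowest and the highest of the gene. Bin 16 had 20, 46 and 63 reads in wt and 31 and 30 in deficient libraries, and its share was lower in both deficient libraries than in any wt library.

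Malt1 encodes the paracaspase that, with Bcl10 and Card proteins, relays antigen receptor signals to NF-kB, and its 16 exons, on chromosome 18, matched the 16 deposited bins. Its level was 32.6, 41.0 and 29.6 CPM in wt and 20.6, 23.9 and 23.2 CPM in deficient libraries, and the groups did not overlap. The log2 fold change was -0.61 ± 0.14 (SE, edgeR adjusted p = 0.029), or 1.52-fold lower in deficient cells, and -0.46 without wt replicate 2 (adjusted p = 0.019). Over the 6 libraries Malt1 went with Ptprc (r = 0.966), and the closest genes were Rps6ka3, the kinase RSK2 (r = 0.9950), Zfp788 (r = 0.9932) and Erap1, a peptide trimming enzyme (r = 0.9927). Exon 7 by order, of 27 bases, had 56, 32 and 90 reads in wt and 33 and 45 in deficient libraries. The placement used 1 transcript, which holds all 16 exons, so the annotation does not mark exon 7 as variable. Whether it is the alternative exon reported for T cells was not tested. It is counted here with the variable exons. Per 100 reads on exons 6 and 8 that was 37.6 ± 11.4 (SD, n = 3) and 41.2 ± 6.54 (n = 2), and as a share of the gene 2.04% ± 0.98 and 1.66% ± 0.258 (exact permutation p = 0.8). Exon 2 and exon 1 had the smallest unadjusted p in the gene (0.279 and 0.291), with usage changes of 0.51 and 0.52, and exon 8 had the lowest change at -0.32. Shares of the gene overlapped between the groups in 15 of the 16 exons, exon 15 being lower in both deficient libraries (log2 change -0.25).

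Genes that act with the members were described through 7 lists with 93 tested genes in all. Of these 11 fell and 3 rose, and 79 did not pass. Their median log2 fold change was -0.12, against -0.03 over all genes tested. Without wt replicate 3, or without any 1 of the 3 deficient libraries, no gene of the lists passed. Among the 13 tested partners of CD45, none passed. Lyn, a Src family kinase on which CD45 acts, was at 44.6, 63.1 and 40.9 CPM in wt and 40.3, 35.9 and 34.6 CPM in deficient cells (log2 fold change -0.42, adjusted p = 0.11). The phosphatase genes Ptpn6 (SHP-1, -0.93, adjusted p = 0.054) and Ptpn22 (-2.12, adjusted p = 0.078) were lower in all deficient libraries without passing. So was Lck (-0.74, adjusted p = 0.084). Csk, Ptpn11, Src and Yes1 overlapped between the groups, at 0.07, 0.02, 0.03 and 0.08. Of the 13 genes around CD44, hyaluronan and the actin linkers, Ezr (ezrin) fell from 174 to 188 CPM in wt to 147 to 152 CPM (-0.27 ± 0.067, adjusted p = 0.035), and its relatives Rdx and Msn, at 0.12 and 0.10, did not pass.

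In the MALT1 and NF-kB list 2 of 19 fell. They were Cyld, a deubiquitinase that MALT1 cleaves (40.7, 52.4 and 40.1 against 28.9, 30.1 and 28.2 CPM, log2 fold change -0.61, adjusted p = 0.021), and Casp8, the caspase that pairs with MALT1 (-0.53, adjusted p = 0.041). Bcl10, the direct partner, was at 23.2 to 28.4 CPM in wt and 22.4 to 24.0 CPM in deficient libraries (-0.13, adjusted p = 0.42). Of 13 tight junction genes Gja1, which encodes connexin 43, a binding partner of ZO-1, rose from 16.4 to 24.2 CPM in wt to 28.3 to 32.7 CPM (0.66, adjusted p = 0.033). The ZO-1 relative Tjp3 (-1.57, adjusted p = 0.044) and the adhesion molecule gene Jam3 (-1.17, adjusted p = 0.045) fell from low levels, with Tjp3 below 3.6 CPM in every library. Of 15 genes for VEGF signalling and oxygen sensing, Vegfb (27.2 to 31.6 against 18.2 to 22.5 CPM, -0.54, adjusted p = 0.025), the prolyl hydroxylase gene Egln3 (-1.69, adjusted p = 0.038) and the VEGF co-receptor gene Nrp1 (-2.99, adjusted p = 0.038) fell. Egln3 and Nrp1 were, like Ptprc and Malt1, highest in wt replicate 2, at 28.3 and 7.15 CPM. This was so for most list genes that fell: also Cyld, Casp8, Tjp3, Jam3 and, described below, Ptbp2 and Bcl2. Ezr, Vegfb and Hnrnpl fell without being highest there.

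Among 12 tested factors known to act on the splicing or stability of the member transcripts, 2 rose and 1 fell. Hnrnpll, the hnRNP L relative that acts on the same Ptprc exons, rose from 145, 128 and 143 CPM in wt to 221, 213 and 213 CPM in the mutants. This log2 fold change of 0.64 ± 0.075 had an adjusted p of 0.010, the smallest of the 7 lists apart from Hnrnpl. Ptbp1, a repressor of many exons, rose by 0.31 ± 0.084 (adjusted p = 0.044), and its relative Ptbp2 fell from 27.6 to 37.5 CPM to 20.2 to 23.4 CPM (-0.58, adjusted p = 0.029). Hnrnpu and Srsf2, which are reported to act on an alternative exon of Malt1, were at 0.23 and 0.22 and did not pass (adjusted p of 0.13 and 0.086). The list of other transcripts linked to hnRNP L holds Hnrnpl itself and Bcl2, whose mRNA hnRNP L is reported to bind. Bcl2 fell from 8.70, 16.4 and 12.7 CPM to 4.77, 6.67 and 5.45 CPM (-1.16 ± 0.26, adjusted p = 0.027), and the other 6 genes of the list did not pass. The authors measured Bcl2 transcripts by quantitative PCR in FL and marrow cells from which mature lineages had been removed. They report no evidence there of a change in its level upon loss of hnRNP L. Why the fall in the sorted Lin-cKit+ libraries differs from that result was not tested.

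**Figure D5:**
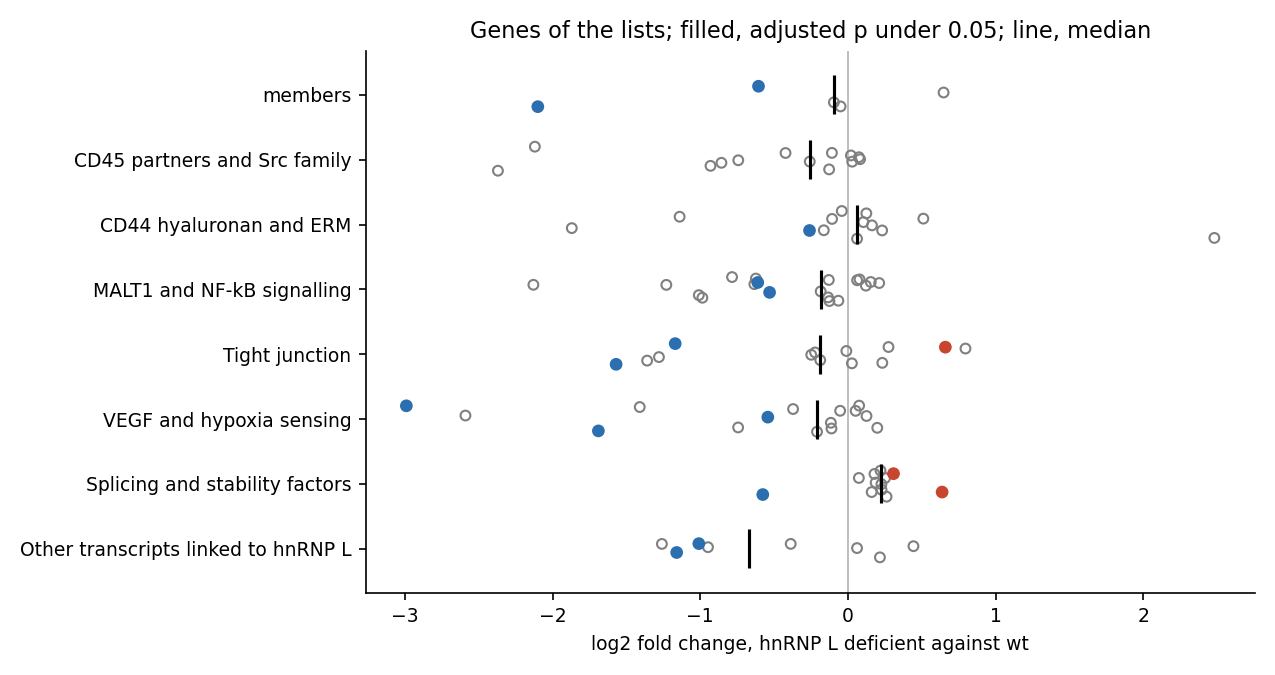
Log2 fold change (hnRNP L deficient against wt, 3 libraries each) of the members and of the tested genes of 7 lists; filled points passed an adjusted p of 0.05 (blue, lower; red, higher) and black lines mark list medians. Hnrnpll, at 0.64, is the filled point farthest right in the splicing factor list, and Nrp1, at -2.99, is the lowest point.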

How the data were processed

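RNA from E14.5 Lin-cKit+ FL cells of 3 wt and 3 hnRNP L deficient embryos was sequenced as stranded, paired-end mRNA libraries. Per the labels and the methods of the study, the authors aligned reads with TopHat2 2.0.10 to mm10 (GRCm38) and deposited raw counts per Ensembl gene (HTSeq) and per exon bin (dexseq_count). The strand option and the Ensembl release are not given in the sources used here, so reads of overlapping genes may be shared. The members and lists were chosen with earlier results of these data known. Replicates are separate embryos, numbered in accession order.

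Gene counts as deposited were tested with edgeR 4.0.16 in R 4.3.3 (quasi-likelihood F test, robust, TMM factors, filterByExpr) and exon bins with diffSpliceDGE on the 176996 bins averaging 10 or more reads, out of 102176927 to 145043938 bin reads per library. A read counts on every bin it overlaps. P-values were adjusted by Benjamini-Hochberg over all features tested. CPM and RPKM were computed here, and 3 reads correspond to 0.0402 to 0.0540 CPM. Alternatives used DESeq2 1.42.0, limma 3.58.1 diffSplice, other scalings, read minimums and left-out libraries.

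Bins carry numbers and no coordinates. They were placed on GENCODE M21 exons (GRCm38) by count and order: with transcripts numbered up to ENSMUST00000182000, 89.77% of 34765 single-gene units had the same number of bins, Cd44, Malt1 and Tjp1 among them. The placement of Ptprc and Vegfa is inferred. For Ptprc these transcripts did not give 33 bins. The 1 transcript used instead, ENSMUST00000183301 with 33 exons, is numbered above that limit, and all exon numbers of Ptprc rest on it. Genes named were, in each list, up to 3 that rose and 3 that fell with the smallest adjusted p, the 3 most correlated with each member, and, per member, the bins with the 2 smallest p-values and the extreme changes, plus the variable exons. Bcl10, Ptpn6, Ptpn22, Lyn, Lck, Csk, Ptpn11, Src, Yes1, Rdx, Msn, Hnrnpu and Srsf2 were named after their values were seen. Variable exon shares were compared by exact two-sided permutation tests on log2 shares, with 0.5 reads added.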

Additional observations from a re-analysis of the deposited data

How the results depend on the processing

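No paired analysis was possible because the groups share only 1 first part of an embryo number, that of wt replicate 1 and deficient replicate 1. The labels do not say what these first parts mean. With DESeq2, 2236 genes fell and 2064 rose, against 1418 and 1341 in edgeR, and 5 genes of the 7 lists rose against 3. With no filter on low counts 1 member passed, and Ptprc, at -2.08, did not. Leaving out 1 library gave 0 to 2479 genes that fell, 5 to 2312 that rose, 0 to 19 list genes that fell, 0 to 12 that rose and 0 to 2 members called, with log2 fold changes of -2.40 to -1.44 for Ptprc, -0.70 to -0.46 for Malt1, -0.19 to 0.0054 for Cd44, 0.38 to 0.90 for Tjp1 and -0.18 to 0.20 for Vegfa. The counts of genes were 0 to 2 that fell and 5 to 15 that rose without wt replicate 3 or a deficient library and higher than with all libraries without wt replicate 1 or 2, and the cause was not tested.

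Across all bins, 560 passed in the DEXSeq model and 218 in limma against 51, and 1222, 747, 265 (mean of at least 50 reads) and 752 (no minimum) against 441 were over 2-fold at an unadjusted p under 0.01. Leaving out 1 library gave 3 to 158 and 117 to 840 bins, and 0 to 2 member bins with an unadjusted p under 0.05, against 4 in the DEXSeq model and 1 in limma. No member bin passed an adjusted p of 0.05 in any fit.

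Signs changed in 14 of 238 values of named bins and 18 of 125 of variable exons under an alternative, none of them past a test. Cd44 bin 10 was at -0.027 in limma, Cd44 bin 17 at 0.19 in the DEXSeq model and 0.52 in limma, and Vegfa bin 12 at 0.33 and 0.58. As log2 share differences, Malt1 exon 7 was at 0.18 and Cd44 v10 at -0.031 against neighbouring exons (an alternative chosen after seeing the data), and Vegfa exon 8 at -0.013 against the median of the upper bins. With 1 library left out, usage changes ranged over Malt1 bin 8 -0.77 to 0.037, Ptprc bin 29 -0.12 to 0.62, Cd44 bin 11 -0.052 to 0.83, Cd44 bin 12 -0.066 to 0.38, Malt1 bin 7 -0.63 to 0.12, Vegfa bin 10 -0.017 to 0.13 and Vegfa bin 12 -0.75 to 0.27, and share differences over Malt1 exon 7 -0.62 to 0.16, Vegfa exon 6 -0.65 to 0.19, Vegfa exon 7 -0.0203 to 0.14, Vegfa exon 8 -0.021 to 0.051, Cd44 v1 -0.18 to 0.64, Cd44 v3 -1.11 to 1.75, Cd44 v6 -1.40 to 0.59, Cd44 v8 -0.048 to 0.35 and Cd44 v9 -0.051 to 0.87. Tjp1 exon 20 and the Cd44 variable exons other than v10 had 0 to 24 reads per library, a depth at which small differences are not detectable.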
